A study of Mus musculus with 3 samples.

Results

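The Ly6 surface antigens and their relatives are 6 genes here, Ly6a, Ly6c1, Ly6d, Ly6e, Lypd3 and Plaur, taken by symbol from a table of 56691 genes; each symbol had 1 line. They were selected on their FPKM and log2 ratios between these same libraries, so the values below describe the libraries and no test is attached to them. The table covers RNA sequencing of 3 cultures of mouse gastric corpus organoids, epithelial structures grown from stomach tissue in a gel matrix, with 1 library in each group. The groups were Gpx4 KO-Mist1+ (genotype label Gpx4 KO, from Gpx4F/F;Mist1Cre/ERT2;RFPLSL mice), Mist1+ (label WT) and Mist1- (label WT), the last 2 from Mist1Cre/ERT2;RFPLSL mice. All mice thus carried the Mist1-driven, tamoxifen-type Cre and the red reporter, were about 8 weeks old, and all 3 cultures were kept in proliferation medium and bear the label P5. The Cre is driven by the Mist1 locus, so recombination starts in cells with Mist1 activity, and each library is 1 culture with no replicate.

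Proteins of the Ly6/uPAR family share a small fold of finger-like loops held together by disulphide bridges, and most sit on the outer face of the cell membrane through a glycosylphosphatidylinositol (GPI) lipid anchor. In the mouse, Ly6a is the antigen Sca-1, used to sort blood stem cells and also known from regenerating and fetal-like gut epithelium. Ly6c1 is a marker of monocyte, T cell and endothelial subsets, Ly6d of early B cell progenitors and stratified epithelia, and Ly6e is a broadly expressed, interferon-inducible member. Plaur is the receptor for urokinase, the protease that activates plasminogen, and Lypd3 is a relative of Plaur found in squamous epithelium.

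The libraries held 16396693 counts for Gpx4 KO-Mist1+, 16187378 for Mist1+ and 14943918 for Mist1-. Gpx4 itself stood at 90.9, 71.6 and 171 FPKM in that order, which puts the knockout-labelled library above Mist1+. Counts per gene also hold reads of any exons left by a deletion and so give no check of the deleted part. Mist1 (Bhlha15) stood at 6.46, 10.3 and 5.40 FPKM. The knockout-labelled library is called the labelled knockout below, and each direction drawn from it belongs to the label only. FPKM is the count scaled to exonic length and library total. Intervals in parentheses are 95% intervals for counting error alone, and no difference could be checked in a replicate.

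Ly6a and Ly6c1 are neighbours of common origin. The start of their coding sequences is shown because the longest run shared by the coding sequences lies there. The first 99 coding bases (GENCODE M21, GRCm38, chromosome 15, both genes on the minus strand) read as follows, with capitals at the 5 positions where they differ.
Ly6a: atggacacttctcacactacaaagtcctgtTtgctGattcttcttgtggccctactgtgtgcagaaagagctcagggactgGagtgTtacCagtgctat
Ly6c1: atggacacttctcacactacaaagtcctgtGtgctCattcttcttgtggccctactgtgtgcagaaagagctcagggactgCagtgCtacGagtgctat
The other 94 bases were identical, and the longest run shared by the coding sequences was 45 bases, from base 37 to base 81 of each. Over whole transcripts, 19% of the distinct 50-base windows of Ly6a and 32.8% of those of Ly6c1 also occurred in another gene's transcripts, among them each other, Ly6c2 and Ly6i. With windows of 100 bases the shares were 1.45% and 10.1%. Ly6a shared such windows with Ly6c1 only, so these genes share longer stretches of their transcripts outside the run shown. Ly6d, Ly6e and Plaur shared no window of either length with another gene. How reads with several matches were handled is not given in the sources used here, so the counts of Ly6a and Ly6c1 carry that uncertainty.

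RefSeq promoter windows on GRCm38.p6, from 250 bases before to 50 after a gene start, were at hand for 3 of the 6 genes, Ly6c1, Lypd3 and Plaur. Those of Ly6c1 and Plaur are shown since the first gene differed widely between the libraries and the second less. Capitals mark matches, on either strand, to TGANTCA (AP-1), GGAATG (TEAD), TTCNNNGAA (interferon GAS), ACGTG (hypoxia response core), or a loose core of the interferon ISRE or the NF-kB site.
Ly6c1, chr15:75048788-75049087, minus strand: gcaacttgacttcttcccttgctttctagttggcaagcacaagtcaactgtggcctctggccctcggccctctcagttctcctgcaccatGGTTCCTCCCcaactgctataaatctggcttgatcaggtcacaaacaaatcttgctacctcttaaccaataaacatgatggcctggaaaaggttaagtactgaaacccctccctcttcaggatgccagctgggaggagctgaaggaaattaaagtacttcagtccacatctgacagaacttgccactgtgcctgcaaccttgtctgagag
Plaur, chr7:24462233-24462532, plus strand: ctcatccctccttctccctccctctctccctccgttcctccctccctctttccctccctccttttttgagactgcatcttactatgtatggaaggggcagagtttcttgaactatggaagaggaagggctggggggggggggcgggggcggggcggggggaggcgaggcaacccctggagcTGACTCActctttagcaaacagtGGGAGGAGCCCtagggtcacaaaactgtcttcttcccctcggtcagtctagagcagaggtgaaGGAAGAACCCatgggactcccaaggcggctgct
The Plaur window held an AP-1 match at position -69 from the gene start, and 7.81% of 32851 promoter windows hold that motif. Both it and the Ly6c1 window held NF-kB core matches, some of them overlapping on the 2 strands, but 50.8% of all windows do. Neither these nor the second Ly6c1 entry held the TEAD, GAS, ISRE or hypoxia letters, which occur in 14.7%, 8.3%, 3.44% and 19.6% of all windows. A match is a description of letters only.

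Ly6a, Ly6d and Ly6c1 shared one order of levels: highest in the labelled knockout, intermediate in Mist1- and lowest in Mist1+. Ly6e was high and nearly level, Plaur was highest in Mist1-, and Lypd3 was close to the limit of detection. In bulk RNA, fewer cells that express a gene and less RNA per cell cannot be told apart.

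Ly6a (ENSMUSG00000075602, chromosome 15, 74994877 to 74998031, minus strand, GRCm38) had 4128 counts in the labelled knockout, 297 in Mist1+ and 1952 in Mist1-. Its level was 208.9 FPKM (202.6 to 215) in the labelled knockout, 15.2 (13.6 to 17.1) in Mist1+ and 108.4 (104 to 113) in Mist1-. None of these intervals overlap, and by FPKM the gene ranked 165 of all genes in the labelled knockout, 3633 in Mist1+ and 524 in Mist1-. Against Mist1-, the labelled knockout was 1.93-fold higher (1.83 to 2.03), so most of the spread of Ly6a lay between Mist1+ and both other libraries. By log2 ratio of FPKM plus 1 it was the seventh highest of 13351 genes in the labelled knockout against Mist1+ (rank 7, ratio 3.69), and the eighth lowest in Mist1+ against Mist1- (rank 8, ratio -2.75).

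Ly6d (ENSMUSG00000034634, chromosome 15, 74762056 to 74763620, minus strand) showed the widest fold of the 6 genes in the labelled knockout over Mist1+, on few counts. It had 275 counts in the labelled knockout, 12 in Mist1+ and 75 in Mist1-, which is 22.5 FPKM (19.9 to 25.4), 1.0 (0.517 to 1.75) and 6.75 (5.31 to 8.46) in the same order. The labelled knockout was 22.6-fold (12.7 to 44.3) above Mist1+ and 3.34-fold (2.58 to 4.37) above Mist1-. Mist1+ was 6.77-fold (3.66 to 13.7) below Mist1-. With 12 counts in Mist1+, the size of these folds is known only within a factor that the intervals give.

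Ly6c1 (ENSMUSG00000079018, chromosome 15, 75044018 to 75048830, minus strand) was low in every library but followed the same order. Its counts were 341 in the labelled knockout, 40 in Mist1+ and 94 in Mist1-, or 12.4 FPKM (11.1 to 13.8), 1.47 (1.05 to 2.0) and 3.75 (3.03 to 4.59). The labelled knockout stood 8.42-fold (6.05 to 11.99) above Mist1+ and 3.31-fold (2.62 to 4.2) above Mist1-, and Mist1+ stood 2.55-fold (1.74 to 3.78) below Mist1-. For every 100 Ly6a counts there were 8.26 Ly6c1 counts (7.38 to 9.23) in the labelled knockout, 13.5 (9.43 to 18.8) in Mist1+ and 4.82 (3.87 to 5.92) in Mist1-. That proportion was thus not the same in the 3 libraries, and the near copy Ly6c2 had 0, 1 and 0 counts.

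Ly6e (ENSMUSG00000022587, chromosome 15, 74955051 to 74959905, plus strand) lies between Ly6d and Ly6a and was the most abundant of the 6 genes in each library. It stood at 425.5 FPKM (420.4 to 431) in the labelled knockout, 367 (362 to 372) in Mist1+ and 398.5 (393 to 404) in Mist1-, from 26387, 22473 and 22524 counts. The labelled knockout was 1.16-fold (1.14 to 1.18) above Mist1+ and 1.07-fold (1.05 to 1.09) above Mist1-, differences beyond counting error but small. The direction against Mist1- turned with median ratio scaling (log2 ratio -0.04 in place of 0.09), and that of Mist1+ against Mist1- turned on TPM (0.21 in place of -0.12). Ly6e made up 61.6% of the summed FPKM of the 6 genes in the labelled knockout, 90.3% in Mist1+ and 72.5% in Mist1-. The other 5 genes together summed to 265, 39.3 and 151 FPKM in the same libraries.

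**Figure D1:**
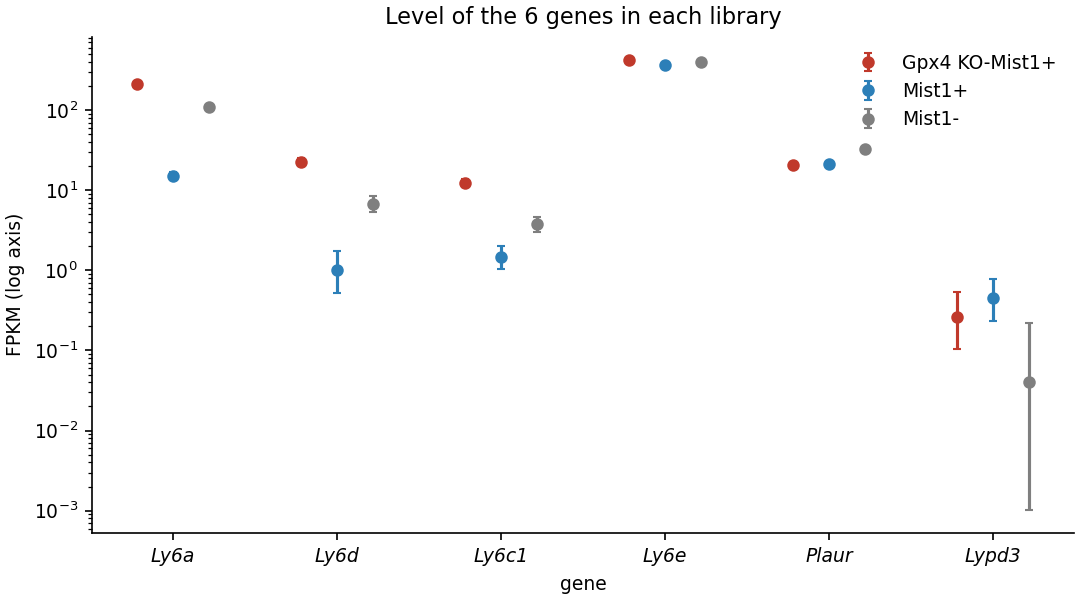
FPKM (log axis) of the 6 genes in the labelled knockout (red), Mist1+ (blue) and Mist1- (grey); points are single libraries and bars are 95% intervals of the count. Ly6a, Ly6d and Ly6c1 are lowest in Mist1+, at 15.2, 1.0 and 1.47 FPKM, while Ly6e stays between 367 and 425.5 FPKM.

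Plaur (ENSMUSG00000046223, chromosome 7, 24462484 to 24475968, plus strand) did not follow the Ly6 genes. It had 893 counts in the labelled knockout, 897 in Mist1+ and 1266 in Mist1-, or 20.8 FPKM (19.5 to 22.2), 21.2 (19.8 to 22.6) and 32.4 (30.6 to 34.2). The labelled knockout and Mist1+ overlapped within counting error, at a fold of 0.983 (0.895 to 1.08), and both were lower than Mist1-. Mist1+ was 1.53-fold (1.40 to 1.67) and the labelled knockout 1.56-fold (1.43 to 1.70) below Mist1-.

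Lypd3 (ENSMUSG00000057454, chromosome 7, 24636550 to 24641118, plus strand) was barely detected, with 7 counts in the labelled knockout, 12 in Mist1+ and 1 in Mist1-. These are 0.260 FPKM (0.105 to 0.536), 0.450 (0.233 to 0.786) and 0.040 (0.00101 to 0.223). The fold of Mist1+ over Mist1- was 11.1 (1.64 to 474), and that of the labelled knockout over Mist1+ was 0.576 (0.192 to 1.59), which spans 1. For the labelled knockout over Mist1- it was 6.38 (0.82 to 287.5), which also spans 1. The antisense gene Gm26550 overlaps Lypd3, and 8.12% of the 50-base windows of Lypd3 occur in its transcripts. Whether counting used the strand is not given in the sources used here.

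Of the 6 genes, 5 had an FPKM of at least 1 in some library and entered the comparison of log2 ratios across 13351 genes; Lypd3 did not. In the labelled knockout against Mist1+, 3 of the 6 genes (Ly6a, Ly6d and Ly6c1) were higher by 2-fold or more and 0 lower by as much, beside 4.81% and 2.74% of all genes. In the labelled knockout against Mist1-, 2 (Ly6d and Ly6c1) were 2-fold or more higher and 0 lower, beside 11.6% and 8.56% of all genes. Between Mist1+ and Mist1-, 2 (Ly6a and Ly6d) were lower in Mist1+ by 2-fold or more and 0 higher, beside 5.73% and 7.88%. The split over all genes depended on the scaling: against Mist1-, 1553 genes were higher and 1143 lower in the labelled knockout, but 4076 and 998 on TPM and 1275 and 1511 with median ratio scaling. Set against Mist1-, Mist1+ had 1052 genes higher and 765 lower, but 3795 and 673 on TPM and 642 and 1226 with median ratio scaling. These are the values that chose the genes, so nothing is read from the counts. The comparisons share libraries, and a low level in Mist1+ alone places a gene on opposite sides in the first and the third.

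**Figure D2:**
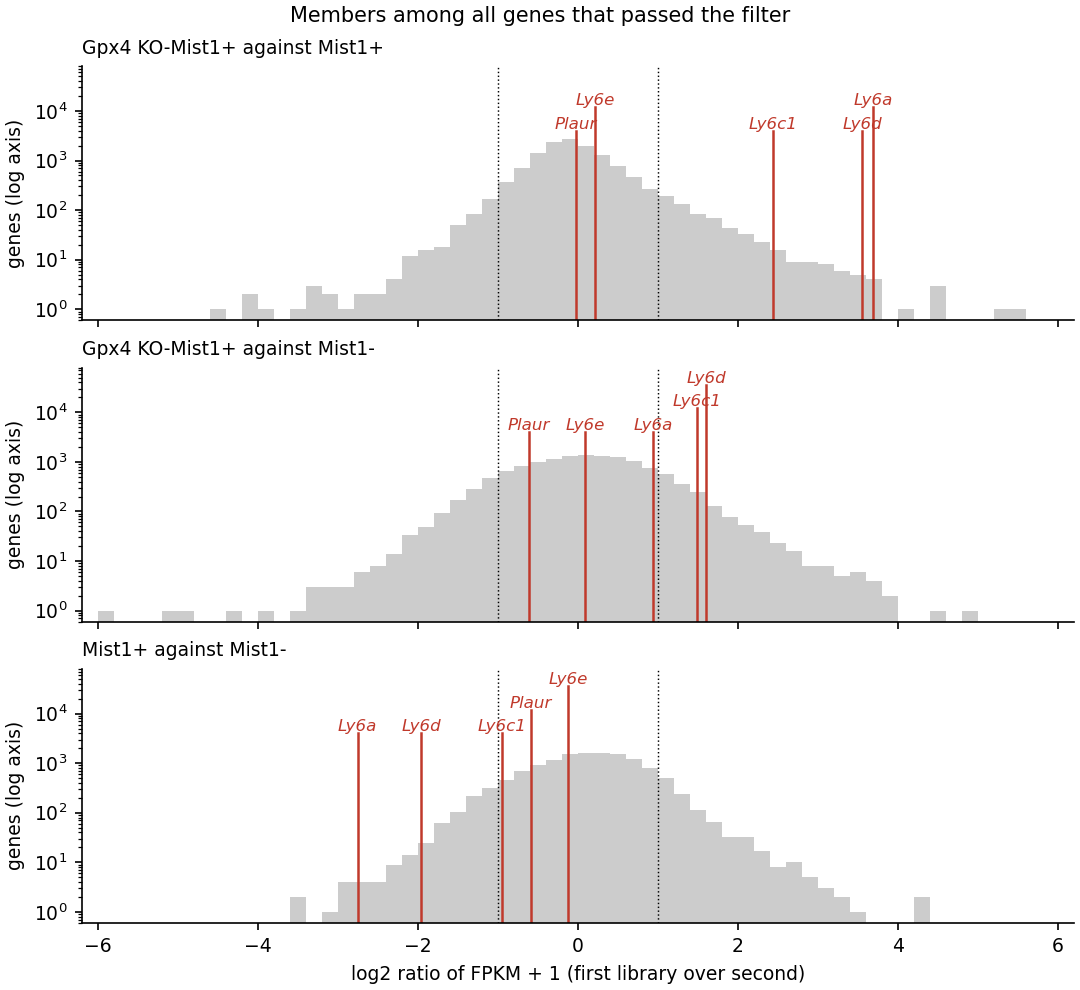
Number of genes (log axis) by log2 ratio of FPKM plus 1 for the 3 pairs of libraries, with red lines at the 5 genes that passed the filter and dotted lines at 2-fold. Ly6a and Ly6d lie at 3.69 and 3.56 in the labelled knockout against Mist1+ and at -2.75 and -1.95 in Mist1+ against Mist1-, while Plaur and Ly6e lie within 2-fold in each pair.

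Ly6a (1205 exonic bases) and Ly6d (744) are short, and short genes were 2-fold apart more often than genes of middle length. In the shortest of 5 equal length groups of the 13351 genes (median 672 bases), 8.99% were higher and 6.96% lower by 2-fold or more in the labelled knockout against Mist1+, and 13.5% were higher and 20.4% lower in Mist1+ against Mist1-. The median log2 ratio of the 5 groups lay between -0.12 and -0.01 in the first comparison, and in the second it was -0.36 in the shortest group and 0.63 in the longest. Ly6c1 (1677 bases) and Plaur (2617) belonged to the next length group, where 5.36% were higher in the first comparison and 5.62% lower in the second. Ly6e (3782) belonged to the middle group, where these shares were 4.16% and 1.95%. With the trend on length removed, Ly6a was at log2 ratios of 3.75 in the labelled knockout against Mist1+ and -2.30 in Mist1+ against Mist1-. Ly6d was at 3.59 and -1.53 and Ly6c1 at 2.52 and -0.55, so all 3 kept their sides. Against Mist1-, the labelled knockout then showed Ly6a at 1.38 in place of 0.94, which passes 2-fold.

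The 4 Ly6 members span 286.8 kb of chromosome 15, and their neighbours there were examined because the choice of the 6 genes did not use them. Of 16 other annotated genes in that span, 11 had a count in some library, and 8 of these had their highest depth-scaled counts in the labelled knockout. The share of all genes highest there was not computed, so nothing is read from that number. Some of the 8 rest on very few counts: Gm6610 had 2, 0 and 0 in the labelled knockout, Mist1+ and Mist1-, and Gm29126 had 3, 1 and 0. The family relatives in the span were scarcely detected: Ly6k had 7, 1 and 0 counts in the same order, Gml had 11, 0 and 1, and Gml2 had 8, 1 and 0. Ly6m had 15, 2 and 3. Gm17189, a gene antisense to Ly6k whose reads cannot be told from those of Ly6k without strand, was at 6.36, 0.990 and 1.31 FPKM, and the noncoding gene Gm39556 at 2.18, 0.350 and 0.330. Together the 16 genes gave 269 counts in the labelled knockout, 42 in Mist1+ and 49 in Mist1-, a fold of 6.32 (4.56 to 8.97) in the labelled knockout over Mist1+ and 5.00 (3.68 to 6.93) over Mist1-. Most of that sum is Gm17189, with 170, 26 and 32 counts. The 13 of them below an FPKM of 1 in all libraries gave 45, 7 and 10 counts, or 6.35-fold (2.84 to 16.7) and 4.10-fold (2.04 to 9.13) more in the labelled knockout than in Mist1+ and Mist1-. Over all 43340 genes below that level the sums differed by 1.05-fold (1.03 to 1.06) and 1.55-fold (1.53 to 1.57). A sum over that many genes does not show how often 13 low genes would differ as widely. No shift of the region is therefore read from these folds. Between Mist1+ and Mist1- the 16 genes did not follow Ly6a: their fold was 0.791 (0.511 to 1.22), which spans 1. The steroid genes Cyp11b1 and Cyp11b2 and the relative Ly6i in the same span had 0 counts in all 3 libraries.

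**Figure D3:**
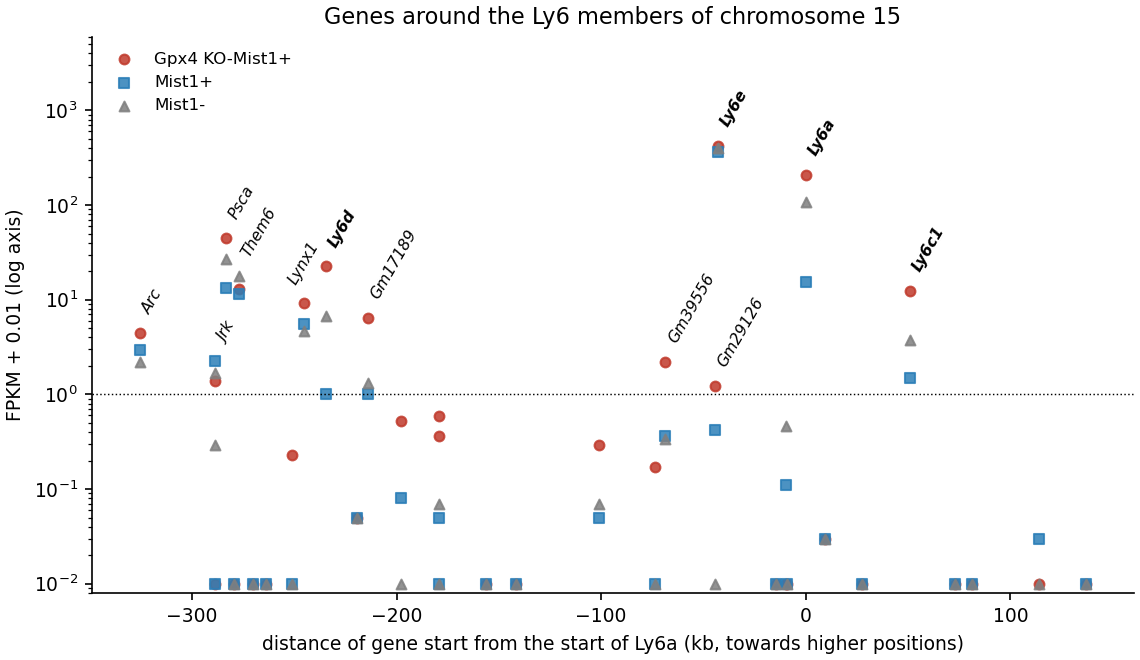
FPKM plus 0.01 (log axis) of annotated genes around the Ly6 members on chromosome 15, by the distance of each gene start from the start of Ly6a in kilobases; names are given for members (bold) and genes that reach 1 FPKM (dotted line). Beside Ly6a, Ly6d and Ly6c1, Psca and Gm17189 are highest in the labelled knockout (44.96 and 6.36 FPKM), while Ly6e differs little.

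On chromosome 7, Plaur and Lypd3 lie within 178.6 kb of each other. Of the genes between and including them, 11 are protein-coding and 7 of these reached 1 FPKM. Cadm4, an adhesion molecule gene 19.5 kb from the start of Plaur, was at 3.70, 3.17 and 3.78 FPKM in the labelled knockout, Mist1+ and Mist1-. Xrcc1, a DNA repair gene, was at 4.60, 7.10 and 8.22. Like Plaur, Zfp428 and Ethe1 were highest in Mist1-, at 1.77, 2.03 and 4.81 FPKM and at 7.81, 8.99 and 15.02. Irgq and Phldb3 were lowest in Mist1-, at 6.6, 6.87 and 3.56 and at 3.74, 3.54 and 2.61.

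Beyond the 6, a list of 45 other Ly6/uPAR family genes was drawn up from symbols, 44 of which are in the table. Of these, 9 reached an FPKM of 1 in some library. A gene that passes only through its highest library must differ between libraries, so these counts are a description. Of the 9, 3 were 2-fold or more above Mist1+ in the labelled knockout and 1 below, beside 4.81% and 2.74% of all genes. Against Mist1-, 1 was above and 1 below in the labelled knockout, beside 11.6% and 8.56% of all genes. Mist1+ had 0 above Mist1- and 1 below, beside 7.88% and 5.73%. The median log2 ratio of the 9 was 0.64 in the labelled knockout against Mist1+, beside -0.09 over all genes, and -0.60 in Mist1+ against Mist1-, beside 0.15. With no filter both list medians were 0, and they kept their sign in the other settings tried.

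Lypd8l, Psca and Ly6g2 had the same order of levels as Ly6a. Psca, the prostate stem cell antigen, a GPI-anchored protein of human gastric epithelium among others, was at 44.96 FPKM in the labelled knockout, 13.2 in Mist1+ and 26.8 in Mist1-, from 634, 184 and 344 counts. It was 3.40-fold (2.88 to 4.03) above Mist1+ in the labelled knockout. Ly6g2, which RefSeq also places on chromosome 15, was at 10.5, 2.76 and 7.84 FPKM, 3.80-fold (2.91 to 5.00) above Mist1+. Lypd8l, on chromosome 11, had 144, 9 and 25 counts, or 6.28, 0.400 and 1.2 FPKM, and stood 15.8-fold (8.09 to 35.2) above Mist1+. None of these 3 shared a 50-base window with another gene's transcripts.

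Other relatives went their own ways. Lypd6b was lower in the labelled knockout, at 3.77 FPKM against 10.4 in Mist1+ and 10.3 in Mist1- (161, 438 and 401 counts). Lynx1, a modulator of nicotinic acetylcholine receptors, was at 9.12, 5.50 and 4.71 FPKM, highest in the labelled knockout. Spaca4, known from sperm, was at 4.49, 2.36 and 2.27 FPKM on 52, 27 and 24 counts. Ly6g6d was at 2.29, 2.95 and 4.97 FPKM and Lypd8, a defence protein of mouse colon, at 0.380, 0.870 and 1.56. Cd59a, an inhibitor of complement, had only 7, 10 and 28 counts. For these last 3 genes the highest level was in Mist1-, as for Plaur, although Lypd8 was level in Mist1+ and Mist1- (log2 ratio 0.0010) once the length trend was removed.

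**Figure D4:**
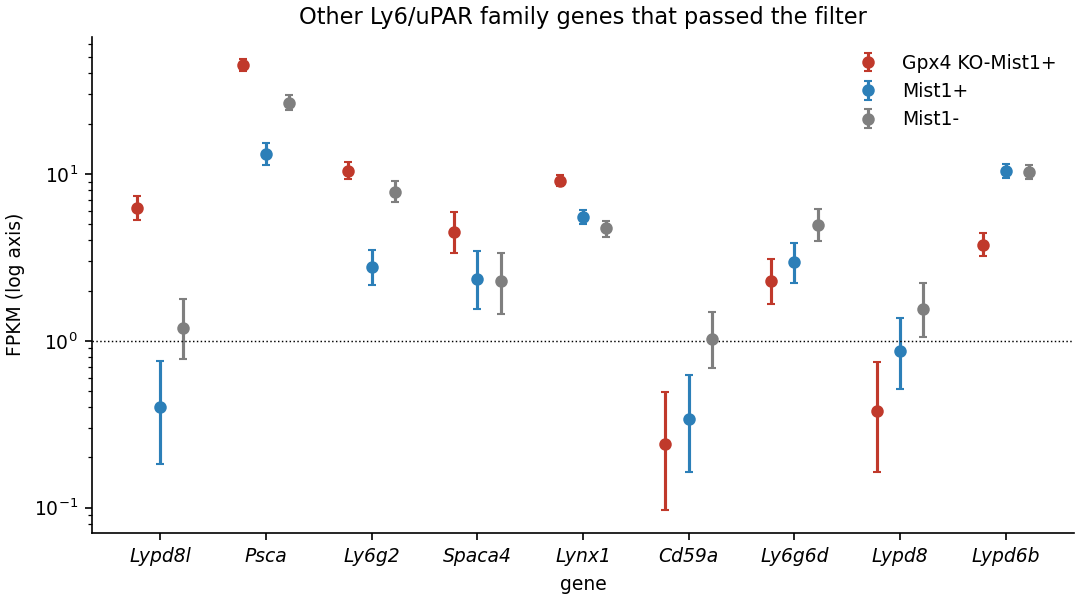
FPKM (log axis) of the 9 other Ly6/uPAR family genes that reached 1 FPKM (dotted line), ordered by their ratio in the labelled knockout (red) over Mist1+ (blue), with Mist1- in grey; bars are 95% intervals of the count. Lypd8l, Psca and Ly6g2 are lowest in Mist1+, and Lypd6b is lowest in the labelled knockout.

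Plaur works with a set of ligands, inhibitors and proteases, and a list of 25 genes of that system was examined beside it. The ligand, urokinase (Plau), was scarcely expressed, at 1.03 FPKM in the labelled knockout, 1.07 in Mist1+ and 0.140 in Mist1-. The tissue-type plasminogen activator Plat was at 23.5, 8.02 and 9.47 FPKM. The plasminogen-binding partners Anxa2 and S100a10 were lowest in Mist1+, like Ly6a, at 217, 105 and 273 FPKM for Anxa2 and at 131, 40.2 and 142.5 for S100a10. Unlike Ly6a, both were higher in Mist1- than in the labelled knockout. Of the 25 genes 17 reached an FPKM of 1. In the labelled knockout 4 of these stood 2-fold or more above Mist1+ and 0 below, beside 4.81% and 2.74% of all genes. Against Mist1- the counts were the same, beside 11.6% and 8.56% of all genes. In Mist1+ 0 stood above Mist1- and 2 below, beside 7.88% and 5.73%. The median log2 ratio of the 17 was 0.27 in the labelled knockout against Mist1+, beside -0.09 over all genes. In Mist1+ against Mist1- it was 0.03, beside 0.15, and became 0 without the filter and negative at an FPKM of at least 5, with median ratio scaling and with the length trend removed.

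The GPI anchor on which these proteins depend is built by a pathway of its own. Of 31 genes of GPI synthesis and attachment 29 passed the filter, and 0 of them were 2-fold apart in either direction between the labelled knockout and Mist1+, with a median log2 ratio of -0.17, beside 4.81% and 2.74% of all genes and an all-gene median of -0.09. Against Mist1-, 3 were higher and 3 lower in the labelled knockout, beside 11.6% and 8.56% of all genes. Mist1+ had 0 higher than Mist1- by 2-fold and 1 lower, beside 7.88% and 5.73% of all genes. The lower gene was Dpm3, for a subunit of the enzyme that makes the mannose donor, at 8.81 FPKM in Mist1+ and 21.6 in Mist1-. The remodelling enzyme Pgap1 was at 82.6 FPKM in the labelled knockout, 45.1 in Mist1+ and 22.8 in Mist1-, and Pign, which adds ethanolamine phosphate, at 7.47, 4.60 and 1.82, both from long genes, of 16611 and 13595 exonic bases. Mpdu1, needed for use of the mannose donor, was at 12.6, 24.25 and 30.2.

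Among 30 other genes listed as GPI-anchored surface proteins, 21 reached an FPKM of 1. Of these, 5 stood 2-fold or more above Mist1+ in the labelled knockout and 1 below, beside 4.81% and 2.74% of all genes. The median log2 ratio of the 21 was 0.38, beside -0.09 over all genes. Against Mist1-, 4 stood above and 0 below in the labelled knockout, beside 11.6% and 8.56% of all genes. The ectoenzyme gene Bst1 had 508 counts in the labelled knockout, 5 in Mist1+ and 15 in Mist1-, or 9.34, 0.090 and 0.30 FPKM, a fold of 100.3 (42.7 to 310) over Mist1+. The ephrin gene Efna1 had the order of Ly6a, at 58.3, 11.0 and 32.3 FPKM, and Ceacam1 was at 7.98, 1.49 and 1.19. Ceacam1 is a transmembrane adhesion molecule and not GPI-anchored, but it is counted in the 5 and the 4 above. The mesothelin gene Msln was at 444, 174 and 243 FPKM and the complement regulator Cd55 at 19.5, 7.15 and 7.87. In the other direction the GDNF co-receptor Gfra1 was at 2.39, 7.67 and 3.51. Against Mist1-, Mist1+ had 0 higher and 1, Efna1, lower, beside 7.88% and 5.73% of all genes.

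Ly6a and Ly6e are induced by interferons in other mouse cells, and a list of 36 interferon response genes was therefore set beside them. Of these, 22 reached an FPKM of 1. In the labelled knockout against Mist1+ 0 of the 22 were 2-fold higher and 0 lower, beside 4.81% and 2.74% of all genes. With shares that small, 0 of 22 lies close to the level of all genes and nothing is read from it. The median log2 ratio of the 22 was -0.01. That median turned positive with no filter, at an FPKM of 5 or more, with median ratio scaling and with the length trend removed. In Mist1+ against Mist1- 0 were 2-fold higher and 0 lower, beside 7.88% and 5.73% of all genes. In the labelled knockout 1 stood above Mist1- by that much and 0 below, beside 11.6% and 8.56%. The transcription factor gene Irf1 was at 7.18 FPKM in the labelled knockout, 10.3 in Mist1+ and 10.4 in Mist1-. Bst2, which is both GPI-anchored and interferon-inducible, was at 17.97, 10.3 and 20.6, and Ifi27 at 3.78, 1.52 and 1.37. The RNA sensor gene Ddx58 was lowest in Mist1-, at 7.66 FPKM in the labelled knockout, 10.5 in Mist1+ and 4.75 in Mist1-, as was Parp14, at 2.60, 3.01 and 1.08.

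A list of 29 genes of regenerative and fetal-like epithelium, the setting in which Ly6a is best known in gut, was chosen with earlier results of these data in view and is no independent evidence of its direction. Of 25 that passed the filter, 13 stood 2-fold or more above Mist1+ in the labelled knockout and 0 below. The shares of all genes were 4.81% and 2.74%. Against Mist1-, 8 stood above and 2 below in the labelled knockout, beside 11.6% and 8.56% of all genes. In Mist1+ 0 stood above Mist1- and 7 below, beside 7.88% and 5.73%. The median log2 ratios were 1.04 in the labelled knockout against Mist1+ and -0.49 in Mist1+ against Mist1-. Sprr1a, a cornified envelope precursor, was at 83.8 FPKM in the labelled knockout, 8.74 in Mist1+ and 22.1 in Mist1-. The alarmin Il33 was at 107, 16.4 and 43.1 and the annexin Anxa8 at 37.1, 6.31 and 13.8, all 3 in the order of Ly6a. S100a6 was at 127.5, 51.3 and 258 FPKM, highest in Mist1-.

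**Figure D5:**
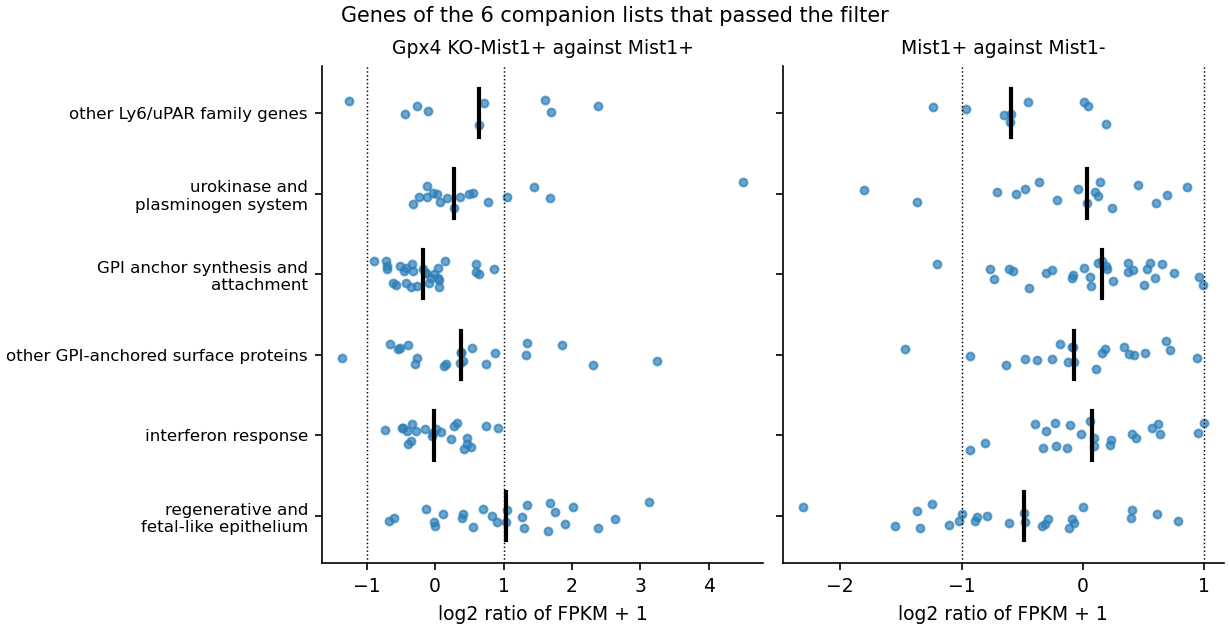
Log2 ratios of FPKM plus 1 for the genes of 6 companion lists that reached 1 FPKM, in the labelled knockout against Mist1+ (left) and Mist1+ against Mist1- (right); each point is a gene, black bars are medians and dotted lines mark 2-fold. The regenerative list has medians of 1.04 and -0.49, while GPI synthesis genes stay within 2-fold on the left.

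Ly6 antigens also mark blood, endothelial and squamous cells, and the markers of these were measured in the same libraries. Of 18 markers of gastric glands 16 passed, with sums of 7010.8, 7188.4 and 7555 FPKM: Epcam was at 396.5, 351 and 427 FPKM in the labelled knockout, Mist1+ and Mist1-, and Cldn18 at 429, 584 and 548. Single gland markers differed more than the sums. In the labelled knockout 2 stood 2-fold or more above Mist1+ and 0 below, beside 4.81% and 2.74% of all genes. Against Mist1-, 1 stood above and 1 below in the labelled knockout, beside 11.6% and 8.56% of all genes. Mist1+ had 2 above Mist1- and 2 below, beside 7.88% and 5.73%. Gkn3 had the order of Ly6a, at 1319.5, 624 and 861 FPKM, while the trefoil peptide gene Tff2 was at 110.6, 52.5 and 178. Tff1, a trefoil peptide of surface mucous cells, was at 87.7, 90.6 and 657. The mucin gene Muc6 was at 20.6, 19.96 and 5.71, and Cblif, the gene of gastric intrinsic factor, at 502, 823 and 403. The part of these glandular differences in the Ly6 levels was not tested. Of 12 leukocyte markers 1 reached 1 FPKM, the lysosomal protein gene Cd68. The pan-leukocyte gene Ptprc had 0, 1 and 1 counts, and Cd3e and Itgam had 0 in all 3. Cd68 had 503 counts in the labelled knockout, 103 in Mist1+ and 82 in Mist1-. It was 4.82-fold higher in the labelled knockout than in Mist1+, and which cells it came from was not tested. Summed leukocyte FPKM was 24.6, 5.93 and 4.71. Of 10 endothelial markers 2 passed, Egfl7 and Esam, and the sums were 7.21, 3.28 and 5.44 FPKM, in the order of Ly6a. Pecam1 had 12, 7 and 8 counts, Cdh5 had 1, 5 and 1, and Emcn and Cldn5 had 0 in all. Summed fibroblast markers were at 0.200, 0.310 and 0.650 FPKM, with Pdgfra at 0 counts in all.

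Of 18 squamous and basal markers 6 passed, with sums of 128, 78.4 and 127 FPKM, most of it Perp at 97.6, 56.8 and 90.2 FPKM. The basal regulator Trp63 had 0 counts in each library, Krt5 had 1, 0 and 0, and Krt14 had 0, 2 and 0. Krt4 was at 9.49, 0.980 and 1.54 FPKM and Sbsn at 3.70, 2.28 and 0.660, both highest in the labelled knockout. The other 3 that passed were highest in Mist1-, with Sfn at 11.95, 13.5 and 26.4 FPKM, Ivl at 2.28, 1.45 and 4.25, and Krt10 at 1.24, 1.64 and 2.37. The 6 thus had no common order, with a median log2 ratio of 0.47 in the labelled knockout against Mist1+ and -0.24 against Mist1-. Of the markers named, Ptprc, Cd3e, Itgam, Emcn, Cldn5, Pdgfra, Trp63, Krt5 and Krt14 were at or near 0 counts. Cd68, Egfl7 and Esam of the leukocyte and endothelial lists passed the filter. Which cells the Ly6 RNA came from was not tested, nor was the part of the marker differences in the Ly6 levels.

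Genes with the pattern most like each member were sought among 8574 genes with at least 50 counts in all and an FPKM of at least 5 in the highest library. Likeness was the distance over 2 log2 ratios from 3 libraries, so it describes shape only. For Ly6a the closest were Gm6166, 4930461G14Rik and AA467197, at distances of 0.65, 0.78 and 0.80. AA467197 was at 170.9 FPKM in the labelled knockout, 22.03 in Mist1+ and 145.5 in Mist1-. Gm6166 was also closest to Ly6d (distance 0.16), followed by Lrg1 (0.42), which was at 46.4, 3.03 and 10.7 FPKM. For Ly6c1 they were Ddit4 (0.05), Egfl6 (0.05) and Cysrt1 (0.05), with Ddit4, a stress-induced inhibitor of mTOR signalling, at 103, 18.6 and 35.6 FPKM. Ly6e and Plaur lie where genes are dense, and their closest were Nars (0.01) and Mdh1 (0.02), with Nars at 73.1, 63.25 and 68.6 FPKM and Mdh1 at 95.1, 97.8 and 149.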

How the data were processed

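RNA of 3 organoid cultures, 1 per group, was sequenced. Per the submitters' processing notes, cutadapt 1.9.1, HISAT2 2.2.1 and HTSeq 0.6.1 were used with GRCm38.p5. The authors deposited whole-number counts per gene and FPKM per gene. FPKM of the members matched count over exonic length and column total within 0.0645%, where a member had at least 50 counts. Gene coordinates are from GENCODE M21 by identifier, as the deposited start and end matched M21 for 1472 of 52073 shared identifiers and for 0 members.

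Members, lists, motifs and naming rules were chosen with earlier results of these data known. Genes were kept where any library reached an FPKM of 1 (13351). Log2 ratios used FPKM plus 1 and were counted at 2-fold. Folds are ratios of counts scaled to column totals, with exact 95% intervals from the binomial split; levels have exact Poisson intervals. They cover counting error only. Single libraries per group allow no p-value. Named genes were the members, the family genes that passed, and up to 4 genes per other list with the widest ratio; other genes named were added after their values were seen, and some genes that the rule names are not reported here. Alternatives were a pseudocount of 0.1 or of 5, omission of the filter, a filter at an FPKM of 5, TPM, median ratio scaling of counts, and removal of the length trend by lowess (fraction 0.3). On 1 kilobase of exon, 3 counts are 0.183 FPKM in Gpx4 KO-Mist1+, 0.185 in Mist1+ and 0.201 in Mist1-. Scripts were tested on simulated data. Computation used matplotlib 3.10.9, statsmodels 0.14.6, scipy 1.17.1, pandas 2.3.3, numpy 2.4.6 and Python 3.11.15.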

Additional observations from a re-analysis of the deposited data

How the results depend on the processing

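The move of each of 111 recomputed log2 ratios of members was set against the distance from middle to end of its log2 counting interval. Under the alternatives 81 moved by no more than that distance, 30 moved further and 0 that had been at 2-fold changed sign. The settings without the filter and with a filter at an FPKM of 5 leave the ratio of a gene as it was. Their values are among the 81 and say nothing on stability. Ly6a, Ly6d and Ly6c1 stood 2-fold or more above Mist1+ in the labelled knockout under each of the 7 alternatives, including those that could not move a ratio. Members above Mist1- by 2-fold or more in the labelled knockout were 1 in place of 2 with a pseudocount of 5, and 3 on TPM and with the length trend removed, where Ly6a joined. In Mist1+ against Mist1-, members at least 2-fold lower were 1 in place of 2 with a pseudocount of 5, and 3 with a pseudocount of 0.1 and with median ratio scaling; 1 in place of 0 was higher on TPM, namely Lypd3. The cause of these moves was not tested. Plaur in the labelled knockout against Mist1+ lay between -0.06 and 0.09 and turned sign in 2 alternatives.

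Counts over all genes moved most. In the labelled knockout against Mist1+, 642 higher became 1028 with a pseudocount of 0.1, 226 with 5, 374 at an FPKM of at least 5 and 1348 on TPM; 366 lower became 773, 70, 201 and 1100. In the labelled knockout against Mist1-, 1553 higher became 2477, 349, 963 and 4076 in the same order, and 1143 lower became 564 with a pseudocount of 5. In Mist1+ against Mist1-, 1052 higher became 1986, 129, 649 and 3795, and 642 with median ratio scaling and 584 with the length trend removed; 765 lower became 396 with a pseudocount of 5 and 1226 with median ratio scaling. TPM and median ratio scaling also changed which genes passed (16770 and 13296), and moved the median of all genes in Mist1+ against Mist1- to 0.45 and -0.03, in place of 0.15. No paired analysis was possible because each group has 1 library and the titles carry no replicate numbers. Depth limits Lypd3, with at most 12 counts, and Ly6d in Mist1+.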
